A study of Mus musculus with 3 samples.

Results

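The TALE homeobox cofactors of Hox proteins were examined in sorted cap mesenchyme, the progenitor cells around the ureteric tips of the embryonic kidney that form nephrons. Members were chosen by name from a list for this family, and each has a single-gene probe set on the array. They were Meis1, Meis2, Meis3, Pbx2, Pbx3, Pbx4, Pknox1, Pknox2 and Tgif1, of the Meis, Pbx, Pknox and Tgif groups. These 9 genes, of 18193 named genes, were represented by 21 of the 45037 probe sets tested. Tgif2, also of the Tgif group and with single-gene probe sets, was not in that list and is counted with the other TALE genes. All 3 arrays came from a single group: cap mesenchyme from E15.5 kidneys (Theiler stage 23) of CD-1 embryos with the transgene Tg(Six2-EGFP/cre)1Amc, in which Six2 regulatory sequence drives an EGFP and cre fusion, isolated by fluorescence-activated cell sorting. Each array carried RNA of a pool of about 5 to 10 kidneys, called pools 1, 2 and 3, embryo sex was not known, and all cells carried the transgene. No other genotype, stage or cell population was part of the series, so the question that can be put to each gene is whether its signal exceeded the background of the arrays.

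TALE proteins are transcription factors whose homeodomain has an extended loop. PBX proteins bind DNA beside Hox proteins and sharpen their choice of sites, MEIS and PKNOX proteins bind PBX proteins and help to hold them in the nucleus, and TGIF proteins recruit corepressors and restrain SMAD and retinoid responses. In the developing kidney, Hox proteins act in nephron progenitors, and Meis1 is known as a gene of the interstitial stroma.

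The 3 arrays had been scaled to the same level, with a mean signal of 1500 on each after the lowest and highest 2% were left out. The background level, the 95th percentile of 150 probe sets for sensory receptor, hair and mucosal defence genes, lay between 186 and 201 signal units. Between any 2 pools, the log2 signals of the called probe sets correlated at 0.940 or more (Pearson's r across probe sets, which do not replicate one another). The log2 ratio of 3′ to 5′ control probe sets ranged over the pools from 4.08 to 5.05 for Gapdh and from 1.82 to 3.28 for Actb. The marker list for cap mesenchyme passed in 9 of 9 genes, beside 54.4% of all named genes. Six2 was at 7905 ± 1904, Cited1 at 878 ± 121 and Eya1 at 33774 ± 4443 (SD, n = 3 each). Stromal markers also passed, in 10 of 12 genes. Signals are linear intensities, and the number of arrays limits their precision. Because probe sets differ in affinity, the levels of single genes are not ranked against each other, and medians over lists describe the probe sets at hand, affinity included. The labels do not say whether the pools came from separate litters, so p-values measure the spread between these pools, which may be technical.

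Transcripts of 7 of the 9 cofactor genes were above background in cap mesenchyme: Meis1, Meis2, Pbx2, Pbx3, Pknox1, Pknox2 and Tgif1. Meis3 and Pbx4 were not above it. The calls came from limma's one-sided test of log2(signal + 16) against the array's background level, with Benjamini-Hochberg adjusted p under 0.05, fitted over all probe sets. By the same rule 54.4% of all named genes were above background, which is the share to read that count against. At the level of probe sets, 14 of the 21 passed, beside 47.2% of all single-gene probe sets. The median of log2 signal over background was 2.64 over all 21 cofactor probe sets and 0.43 over all single-gene probe sets. In these sorted populations, fewer cells with a transcript and less of it per cell cannot be told apart.

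**Figure D1:**
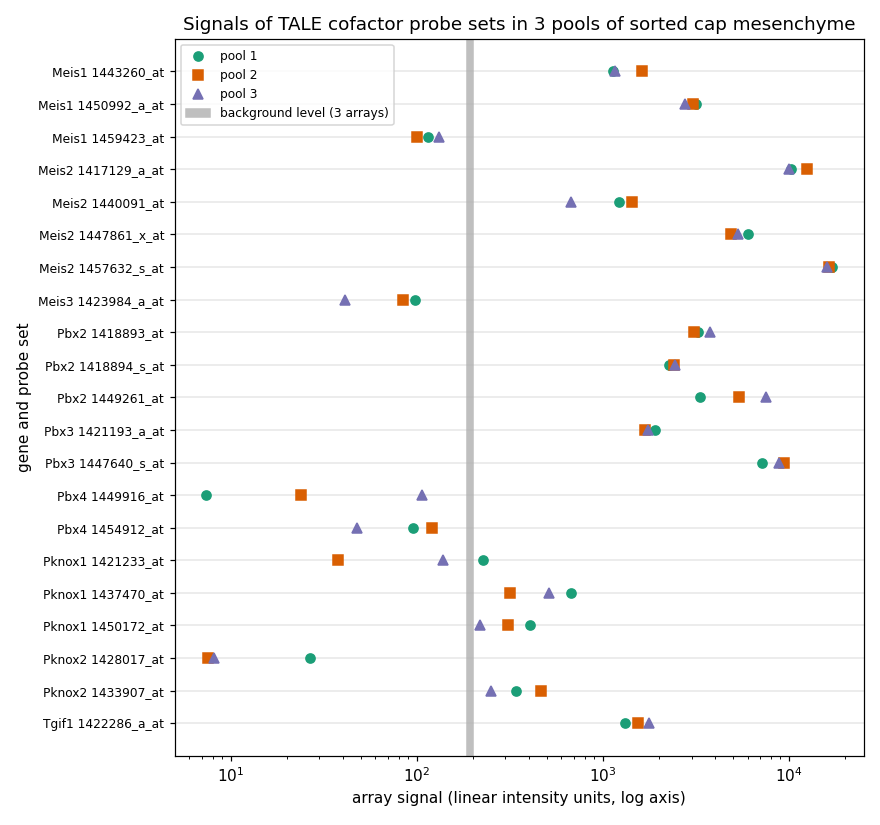
Signal of each of the 21 cofactor probe sets (rows) in each of 3 pools, in linear intensity units on a log axis, with the span of the background level over the arrays as a grey band. In 15 probe sets all 3 pools lie to the right of the level (50.1% of all single-gene probe sets do), in 5 none does, and in 1, Pknox1 1421233_at, only pool 1 does.

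Among the MEIS genes, which encode partners of PBX and Hox proteins, Meis2 was above background on all 4 of its probe sets. Probe set 1457632_s_at read 17091, 16507 and 16064 in pools 1, 2 and 3, 6.30 log2 units over background (95% interval 5.997 to 6.60, adjusted p = 1.6e-08, limma). Probe set 1417129_a_at read 10237, 12445 and 9953, and probe set 1447861_x_at read 6066, 4916 and 5314. Every pool lay far over the background level on these probe sets, and the pools stayed within 0.32 log2 units of each other. The fourth, 1440091_at, read 1224, 1444 and 677 (log2 over background 2.36, 95% interval 1.80 to 2.92), with pool 3 low and still over the level. Meis2 is known from studies in mice for roles in the heart and the cranial neural crest.

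Meis1, a cofactor gene studied in blood stem cells and leukaemia and the one known as stromal in kidney, was above background on 2 of 3 probe sets. Probe set 1450992_a_at read 3150, 3055 and 2753 in pools 1, 2 and 3, which was 3.83 log2 units over background (95% interval 3.54 to 4.13, adjusted p = 5.1e-08, limma). Probe set 1443260_at read 1136, 1629 and 1166 (2.64 log2 units over background, adjusted p = 2.7e-06, limma). On both of them all pools were high. The third, 1459423_at, read 115, 99.95 and 133, below the background level in every pool.

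Meis3, the third paralog, was measured by 1 probe set and was not above background. It read 97.8, 84.4 and 41.2 in pools 1, 2 and 3, under the level in all of them (log2 over background −1.28, 95% interval −2.17 to −0.38). Since a probe set may bind its transcript poorly, such a reading does not establish that the RNA was missing.

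Among the PBX genes, whose products bind DNA next to Hox proteins, Pbx2 and Pbx3 were above background on every probe set and Pbx4 on none. Pbx2, which is widely expressed in mouse embryos, read 3244, 3088 and 3776 on 1418893_at, 4.00 log2 units over background (95% interval 3.72 to 4.29, adjusted p = 3.5e-08, limma). Its probe set 1418894_s_at read 2280, 2405 and 2434, and the pools differed by only 0.09 log2 units from lowest to highest. The third, 1449261_at, read 3342, 5405 and 7492, so that pool 1 was low and pool 3 high by 1.16 log2 units where the other probe sets of the gene were nearly level.

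Pbx3, known in mice for a role in the brainstem circuits of breathing, read 7207, 9375 and 8845 on 1447640_s_at (5.33 log2 units over background, 95% interval 5.00 to 5.65, adjusted p = 1.8e-08, limma). Its other probe set, 1421193_a_at, read 1914, 1692 and 1753 and was 3.10 log2 units over background (95% interval 2.80 to 3.40). All pools were high on both. Pbx4, a paralog known from the mouse testis, read 95.3, 121 and 48.1 on 1454912_at and 7.40, 23.8 and 107 on 1449916_at. No pool reached the background level on either, and the mean log2 differences from it were −1.08 (95% interval −1.999 to −0.17) and −2.11 (95% interval −3.24 to −0.99).

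**Figure D2:**
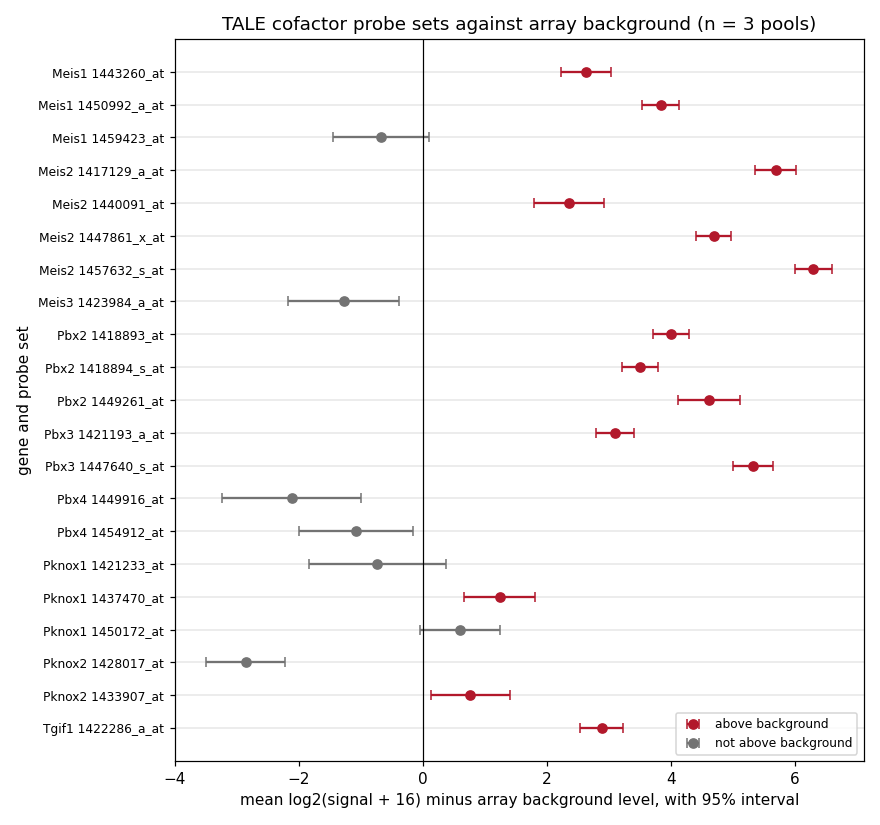
Mean over 3 pools of log2(signal + 16) minus the background level of the array, for each cofactor probe set, with limma's 95% interval as bars. The 4 Meis2 probe sets lie between 2.36 and 6.30, whereas the single Meis3 probe set and both Pbx4 probe sets have intervals wholly below 0.

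The PKNOX genes, also called Prep genes, encode MEIS-like partners of PBX proteins, and each was called on 1 probe set, 0.76 to 1.24 log2 units over background. Pknox1, which mouse embryos need for survival and blood formation, read 675, 318 and 513 on 1437470_at (1.24 log2 units over background, 95% interval 0.66 to 1.81, adjusted p = 0.0020, limma). All pools were over the level there, with pool 2 low. Its probe set 1450172_at read 408, 311 and 218, over the level in every pool but without passing the test (adjusted p = 0.076, limma). The third, 1421233_at, read 228, 37.6 and 139, over the level in pool 1 alone. With background set at its 99th percentile, Pknox1 lost its call (adjusted p = 0.922, limma).

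Pknox2 read 340, 465 and 250 on 1433907_at, 0.76 log2 units over background (95% interval 0.13 to 1.40, adjusted p = 0.031, limma). All pools were a little over the level. The other probe set, 1428017_at, read 26.6, 7.53 and 8.19, far below it. Leaving out pool 1 (adjusted p = 0.0546) or pool 2 (adjusted p = 0.233) removed this call, as did a background of keratin-associated protein and defensin genes alone (adjusted p = 0.148, limma for all). With background set at its 99th percentile the mean lay under the level, at −0.37 log2 units (adjusted p = 1, limma).

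Tgif1, the corepressor gene of the family whose human counterpart is linked to holoprosencephaly, was measured by 1 probe set. It read 1313, 1546 and 1776 in pools 1, 2 and 3, which was 2.88 log2 units over background (95% interval 2.54 to 3.22, adjusted p = 5.9e-07, limma). All pools were well over the level and within 0.43 log2 units of each other.

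Among the 7 cofactor genes with several probe sets, Meis1, Pknox1 and Pknox2 (3 genes) were called on some and not on others. Over the whole array this held for 4173 of 9010 genes with several probe sets. Meis2, Pbx2 and Pbx3 were called on every probe set and Pbx4 on none, so the calls of these 4 genes do not depend on which probe set stands for the gene.

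For the cofactor probe sets above background, the log2 range from lowest to highest pool had a median of 0.35 and ran from 0.09 for Meis2 on 1457632_s_at to 1.16 for Pbx2 on 1449261_at, beside a median of 0.48 over all single-gene probe sets above background. In 3 of the 14 the range was 1 or more, and among all single-gene probe sets above background this held for 11.7%. These 3 were Pbx2 on 1449261_at, Meis2 on 1440091_at and Pknox1 on 1437470_at. The high pool was a different one in each, pool 3 for Pbx2, pool 2 for Meis2 and pool 1 for Pknox1. For Pbx2 and Meis2 the other probe sets of the gene had ranges of at most 0.29 and 0.32 log2 units, so the spread was seen on 1 probe set of the gene. For Pknox1 the probe sets not called had ranges of 2.19 (1421233_at) and 0.86 (1450172_at), and pool 1 was the highest on all 3. No pool stood apart over the family: the median deviation of the 14 from their 3-pool mean was −0.03 in pool 1, 0.03 in pool 2 and −0.03 in pool 3. A range can only stay equal or shrink when a pool is left out. Without any 1 of the pools, 1 probe set in place of 3 had a range of 1 or more. With 1 array per pool these differences have no test, and any part of the 3′ to 5′ control ratios in them was not tested.

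**Figure D3:**
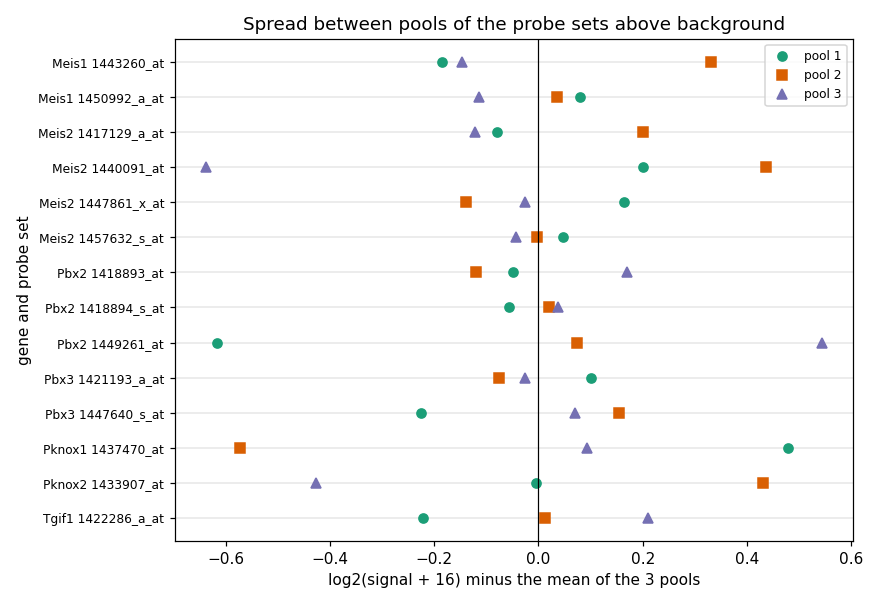
Deviation of each pool from the 3-pool mean of log2(signal + 16), for the 14 cofactor probe sets above background. Most points lie close to 0, and the widest spreads are those of Pbx2 1449261_at (1.16 log2 units from pool 1 to pool 3), Meis2 1440091_at (1.07) and Pknox1 1437470_at (1.05).

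Sequences upstream of the annotated start were taken from RefSeq (GRCm38.p6), which held 10 start sites for 6 of the members: Meis1, Meis2, Meis3, Pbx2, Pbx4 and Tgif1, the last with 5. The 250 bases before the start are shown for 2 genes that were above background and 2 that were not, with CG dinucleotides in capitals, to let their base composition be compared.
Meis1, chr11:19018970-19019219, minus strand: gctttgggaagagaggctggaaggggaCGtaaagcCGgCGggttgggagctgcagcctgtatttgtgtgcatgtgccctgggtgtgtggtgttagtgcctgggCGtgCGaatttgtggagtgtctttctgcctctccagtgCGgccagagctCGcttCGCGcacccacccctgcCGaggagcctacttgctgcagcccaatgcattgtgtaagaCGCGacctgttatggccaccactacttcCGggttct
Meis2, chr2:116064620-116064869, minus strand: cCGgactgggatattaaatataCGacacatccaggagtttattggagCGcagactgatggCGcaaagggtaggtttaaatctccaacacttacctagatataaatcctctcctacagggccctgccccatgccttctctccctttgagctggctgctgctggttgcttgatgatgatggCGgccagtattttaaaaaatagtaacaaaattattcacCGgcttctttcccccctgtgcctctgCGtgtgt
Meis3, chr7:16175145-16175394, plus strand: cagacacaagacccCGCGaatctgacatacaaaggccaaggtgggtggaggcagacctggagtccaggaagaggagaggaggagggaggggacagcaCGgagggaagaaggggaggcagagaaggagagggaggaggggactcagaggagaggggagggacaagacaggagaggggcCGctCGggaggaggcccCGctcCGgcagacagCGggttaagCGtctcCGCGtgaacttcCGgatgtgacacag
Pbx4, chr8:69832374-69832623, plus strand: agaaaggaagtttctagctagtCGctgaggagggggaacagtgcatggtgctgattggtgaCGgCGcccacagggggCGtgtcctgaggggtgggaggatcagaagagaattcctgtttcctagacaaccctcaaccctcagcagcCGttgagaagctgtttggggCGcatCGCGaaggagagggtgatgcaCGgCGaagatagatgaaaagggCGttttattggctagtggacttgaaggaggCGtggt
The Meis1 and Meis2 stretches held 13 and 7 CG dinucleotides, and those of Meis3 and Pbx4 held 12 each, beside a median of 6 over all 32851 start sites of the table. Among the genes shown, Meis3 and Pbx4, which were not above background, lay between Meis2 and Meis1, which were. Of the members not shown here, both above background, Pbx2 held 27 and the 5 starts of Tgif1 held 2, 11, 18, 16 and 15.

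The hexamer TGACAG, the core bound by MEIS, PKNOX and TGIF proteins, and TGATNNAT, a core bound jointly by PBX and Hox proteins, were searched on both strands in the 250 bases before and 50 after each start. TGACAG was found at 2 of the 10 start sites of the members, both of Tgif1, and at 19.2% of all start sites. TGATNNAT was found at 1 of the 10, also of Tgif1, and at 8.85% of all. The matches lay at 3 different starts and did not overlap. They are shown in 30 bases each, with the motif in capitals, since they are the only matches of either motif among the members' starts.
Tgif1 TGACAG near its start, chr17:70851188-70851217, minus strand: gctctctcactcTGACAGcgccgaggtgcg
Tgif1 TGACAG at another start, chr17:70846728-70846757, minus strand: tttaggttcatatctaatTGACAGtcttaa
Tgif1 TGATNNAT upstream of one more start, chr17:70849906-70849935, minus strand: tttttttgttgTGATTTATgtggagtggtt
A match describes letters in a window and is not a measured site.

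The other TALE genes on the array were mostly not above background, with 2 of 8 passing, beside 54.4% of all named genes. With each gene at its probe set of highest mean signal, the median of log2 signal over background was −1.59 in this list, beside 1.20 over all named genes. Tgif2, the paralog of Tgif1, read 6330, 5388 and 6841 on 1434400_at (4.88 log2 units over background, adjusted p = 1.7e-08, limma), while its probe set 1431115_at read 11.8, 36.6 and 24.4. Mkx, known from the mouse as a tendon regulator, read 509, 497 and 483 (1.28 log2 units over background, adjusted p = 0.00039, limma). At the 99th percentile of background 1 of the 8 passed, beside 46.1% of all named genes. None of the 6 Iroquois genes passed (0 at an unadjusted p under 0.05, limma): Irx1, Irx2, Irx4, Irx5 and Irx6 had mean signals between 9.95 and 69.3. Irx3, a gene of the intermediate nephron segment in frogs and mice, read 219, 39.1 and 454, with pools 1 and 3 over the background level and pool 2 under it.

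The genes that TALE proteins work with were largely above background. All 12 listed partners of TGIF proteins passed, beside 54.4% of all named genes, among them Ctbp1 (36778 ± 2639) and Sin3b (16257 ± 757), which encode corepressors, and Smad3 (10159 ± 303; SD, n = 3 each), a transducer of TGF-beta signals. The lowest test statistics in that list were those of Skil (6524 ± 2636) and of the retinoid receptor gene Rxra (944 ± 82.0), both above background. Of 9 measured partners of PBX and MEIS proteins 8 passed, against the same share of 54.4%, including Myh10 (37116 ± 5490), a nonmuscle myosin gene, the coactivator gene Crebbp (14729 ± 1433) and the deacetylase gene Hdac3 (4781 ± 62.9). In the same list Crtc1 passed at 480 ± 116, and Crtc2 did not (314 ± 76.4, adjusted p = 0.054, limma). The medians of log2 signal over background were 5.35 for the TGIF partners and 4.49 for the PBX and MEIS partners, beside 1.20 over all named genes. Many of these genes act in most cell types.

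Of 33 measured Hox genes, the DNA-binding partners themselves, 23 were above background, beside 54.4% of all named genes, and the median of all 33 was 2.13 log2 units over it. Those with the largest test statistics were Hoxa9 (39446 ± 4267), Hoxa5 (6832 ± 417) and Hoxc8 (13095 ± 1940.3), and those with the smallest were Hoxc13 (13.2 ± 5.54) and Hoxb13 (10.2 ± 1.26; SD, n = 3 each). In the list of kidney genes drawn up as bound, alone or jointly, by Hox proteins, the 4 measured genes all passed, beside 54.4% of all named genes. Six2, Gdnf, Eya1 and Itga8 had log2 signals of 5.20, 5.29, 7.32 and 6.74 over background. These 4 are also in the cap mesenchyme marker list, and Six2 is the gene whose regulatory sequence served for the sort.

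**Figure D4:**
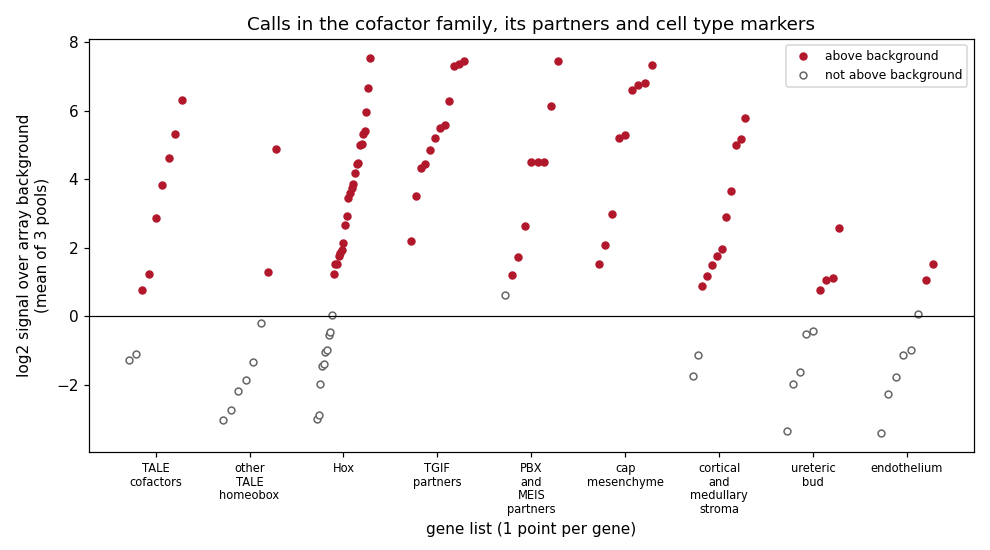
Log2 signal over array background, as the mean of 3 pools, for each measured gene of the cofactor family, of its partner lists and of cell type marker lists, with 1 point per gene at its probe set of highest mean signal. Filled points (above background) number 7 of 9 cofactors, beside 2 of 8 other TALE genes, 12 of 12 TGIF partners and 10 of 12 stromal markers. Tgif2 is counted with the other TALE genes. Of all named genes 54.4% were above background.

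Because Meis1 is known from stroma, the markers of neighbouring cell types are given beside it. Of 12 stromal markers 10 were above background, beside 54.4% of all named genes, which is the share to read each marker count here against. Foxd1 was at 7565 ± 322, Aldh1a2 at 11845 ± 3526 and Pdgfra at 728 ± 257 (SD, n = 3 each). Ntn1 and Tbx18, at mean signals of 83.9 and 65.95, were not. The summed signal of the stromal list was 36613, 35172 and 30242 in pools 1, 2 and 3. Single stromal genes differed in their order of pools: Foxd1 read 7370, 7389 and 7938, Aldh1a2 15849, 9206 and 10478, and Pdgfra 821, 926 and 438. Meis1 followed the order of the sum on 1450992_a_at, at 3150, 3055 and 2753, and another on 1443260_at, at 1136, 1629 and 1166. With 3 pools, a shared order was not tested. Of 9 ureteric bud markers 4 passed, beside the same 54.4%. Among them were Etv4 (1273 ± 380, 2.57 log2 units over background), Wnt11 (445 ± 159) and Wnt7b (449 ± 115), but the receptor gene Ret did not pass (139 ± 9.75; SD, n = 3 each). Nor did Calb1, Gata3, Cdh1 and Aqp2, at mean signals of 52.7, 4.66, 55.6 and 139. Of 8 endothelial markers 2 passed, Eng (424 ± 66.5) and Egfl7 (591 ± 45.9; SD, n = 3 each), and the defining genes Pecam1, Kdr and Cdh5 did not, at mean signals of 47.6, 206 and 83.9. Of 8 macrophage markers 1 passed, Laptm5 (462 ± 89.5; SD, n = 3), while Csf1r, Cd68 and C1qa did not, at mean signals of 159, 296 and 9.82. Of 5 erythroid markers none passed (0 at an unadjusted p under 0.05, limma), whereas of 5 nerve markers 3 did, beside the same 54.4%. Elavl4 was called on all 3 of its probe sets, 4.09 log2 units over background (3581 ± 221), and Nefl (952 ± 355) and Dbh (427 ± 94.4; SD, n = 3 each) also passed. The nerve genes Tubb3 and Stmn2 did not, at mean signals of 26.5 and 33.3. At the 99th percentile of background the counts were 6 stromal, 1 ureteric bud, 2 nerve, 0 endothelial, 0 macrophage and 0 erythroid markers. Of all named genes 46.1% passed there. The part of stromal cells in the signals of Meis1, or of any other member, was not tested.

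**Figure D5:**
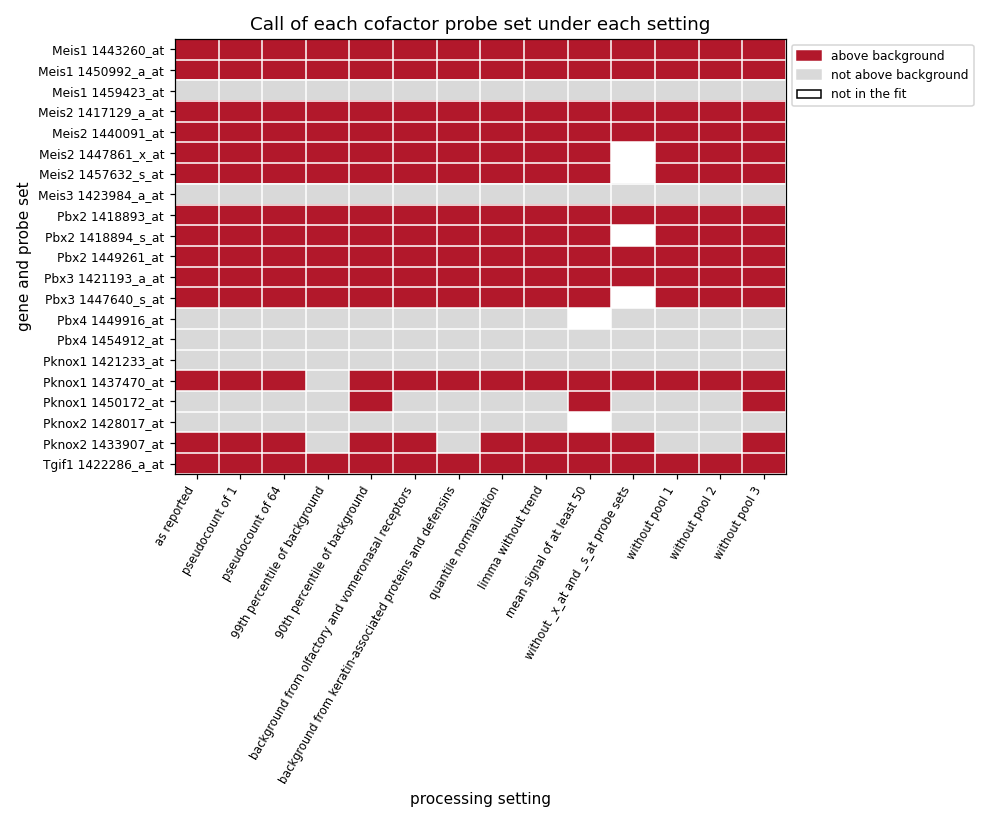
Call of each of the 21 cofactor probe sets (rows) as reported and under 13 other processing settings (columns), where red is above background, grey not above it and white not in the fit. Of the rows, 18 keep their call in every setting that fitted them, and the changes lie in Pknox1 1437470_at, Pknox1 1450172_at and Pknox2 1433907_at.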

How the data were processed

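Expression was measured on 1 array for each of 3 pools of sorted cells, which form 1 group with replicate numbers from their titles. The deposited values are linear intensity signals of 45101 probe sets, made by the authors with GCOS per the submitters' processing notes, from total RNA amplified in 2 rounds per the labels' protocols, and the version, the settings and the genome build are not given in the sources used here. Tested on the values, each array had been scaled to a trimmed mean of 1500, which removes differences in total signal between arrays.

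The platform annotation gave names, and 34945 had a single gene symbol. All 21 member probe sets matched RefSeq by Entrez identifier. The 64 controls stayed out of all tests. Background was taken from 24 probe sets of defensins, 43 of keratin-associated proteins and 44, 36 and 3 of olfactory, vomeronasal and bitter taste receptors. Their 95th percentile on each array was subtracted from log2(signal + 16), and a one-sided test in limma 3.58.1 (R 4.3.3) asked whether the mean exceeded 0 (intercept only, eBayes with trend, Benjamini-Hochberg over 45037 probe sets). Differences of weak signals are understated with the pseudocount of 16. One called single-gene probe set sufficed to call a gene, and its probe set of highest mean log2 signal represents it in lists. A version of the fit without trend was first run on simulated data. The fit with trend, which made the calls, was not itself tested in that way. Tables and plots were made with Python 3.11.15, pandas 2.3.3 and matplotlib 3.10.9.

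Every member was named with all its probe sets. All other TALE genes and kidney genes could be named, from partner and Hox lists the 3 largest and 2 smallest test statistics, and from marker lists the leading 3 genes. Ntn1, Tbx18, Etv4, Calb1, Gata3, Cdh1, Aqp2, Eng, Egfl7, Laptm5, Nefl and Dbh were named after their values were seen. The members and lists were chosen with earlier results of these data known. List genes that no single-gene probe set measured were not analysed here. Processing alternatives were the pseudocount, the percentile and make-up of background, quantile normalization, the trend, a filter on dim probe sets, leaving out probe sets that can match several transcripts, and leaving out each pool.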

Additional observations from a re-analysis of the deposited data

How the results depend on the processing

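Of the 21 cofactor probe sets, 18 kept their call under every one of the 13 alternatives in which they were fitted. The exceptions were Pknox1 on 1437470_at, Pknox1 on 1450172_at and Pknox2 on 1433907_at. The last reversed at the 99th percentile of background, to −0.37 log2 units. Pknox1 on 1450172_at passed at the 90th percentile (adjusted p = 0.0181, limma), with probe sets under a mean signal of 50 left out (adjusted p = 0.0386) and without pool 3 (adjusted p = 0.0275). The count of cofactor genes above background ran from 5, at the 99th percentile (46.1% of all named genes there), to 7. That of probe sets ran from 10, without probe sets ending in _x_at or _s_at (17 left in the fit, 45.3% of all single-gene ones called), to 15. The count of 15 came at the 90th percentile (50% of all single-gene ones called) and without pool 3 (47.1%). It also came with probe sets under a mean signal of 50 left out, where 19 were fitted (60.1%).

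The median log2 signal over background of the cofactor probe sets, 2.64 as reported, was 1.51 at the 99th percentile, 2.95 at the 90th and 1.24 without probe sets ending in _x_at or _s_at, where 4 high ones were left out. The 3 probe sets with a pool range of 1 or more became 1 in each case when a pool was left out (1 to 1). Leaving out a pool cannot widen such a range, so this count could not rise. Alternatives for the related lists were chosen after seeing the data. At the 99th percentile 6 stromal, 1 ureteric bud, 2 nerve, 0 endothelial and 0 macrophage markers and 1 other TALE gene passed. The share of all named genes there was 46.1%. Macrophage markers numbered 2 at the 90th percentile (56.6% of all named genes) and 0 without probe sets ending in _x_at or _s_at (52.9%). Erythroid markers numbered between 0 and 1 when a pool was left out, with 1 without pool 1 (53.8% of all named genes). The cause of these shifts was not tested, apart from fewer probe sets or a higher level by construction. No paired analysis was possible because there is 1 group only.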
